A study of Mus musculus with 6 samples.

Results

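The SLC25 genes, which encode the mitochondrial carrier proteins, were examined in bone marrow-derived macrophages (BMDMs) lacking DRP1. The members were the protein-coding genes of the GENCODE annotation of GRCm39 whose symbol is Slc25a followed by a number, and which had at least 10 estimated counts summed over the libraries. The annotation held 47 such genes, and 45 of them passed this filter, among 18506 genes that passed it in all. Slc25a41 and Slc25a54 did not pass, and neither had more than 1 count in any library. DRP1, the product of Dnm1l, is the dynamin-related GTPase that divides mitochondria. The study compared WT BMDMs (LysM-Cre+/- Drp1+/+) with Drp1 KO BMDMs (LysM-Cre+/- Drp1 fl/fl) in 3 libraries each. Both groups carried LysM-Cre, in which the lysozyme M promoter drives Cre in myeloid cells, so the Drp1 KO cells differed by the floxed alleles. All 6 cultures were taken on day 7 and kept for 8 h in endothelial starvation medium without FBS at 2.1% O2 as the labels give it, a treatment called hypoxia serum starvation (HSS) that stands for ischemia in culture. The mice were of both sexes and 8 to 12 weeks old, and the bone marrow of 2 mice of a genotype was pooled; it is not said whether each library came from a separate pool, so the p-values measure only the spread between these libraries, which may be technical.

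Mitochondrial carriers sit in the inner mitochondrial membrane, apart from a few that sit in the outer membrane or in peroxisomes, and exchange nucleotides, phosphate, carboxylates, amino acids and cofactors between the matrix and the cytosol. The classical fold is built from repeats, and each repeat carries a signature that reads, in codons, proline, any codon, an acidic residue, any pair of codons and a basic residue. Carriers feed oxidative phosphorylation with ADP and phosphate, shuttle reducing equivalents through the malate-aspartate shuttle, and supply glycine and iron for heme synthesis. Macrophages use the citrate and malate carriers to move carbon between the tricarboxylic acid cycle and the cytosol.

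The signature is common in the family but not confined to it, and its codons are shown for the 5 members that passed a threshold below and for the pair of adenine nucleotide translocators. A codon search of the deposited protein-coding transcript with the highest level of each gene found at least 1 signature in 44 of the 47 members (93.6%) and at least 3 in 26 of them (55.3%). It found none in Slc25a46, Slc25a51 and Slc25a53. Among 21432 protein-coding genes the shares were 25.8% and 2.25%. The first signature of each member is written here 5′ to 3′ on the coding strand with its position in GRCm39, and capitals mark the codons of the proline, the acidic residue and the basic residue.
Slc25a11, chr11:70537012-70537029, minus strand: CCCctgGACctggtgAAG
Slc25a16, chr10:62764110-62764127, plus strand: CCCctgGACcgagtgAAA
Slc25a22, chr7:141013860-141013877, minus strand: CCCatcGACctggctAAG
Slc25a37, chr14:69522181-69522198, minus strand: CCGgtgGACtccgtgAAG
Slc25a38, chr9:119945637-119945654, plus strand: CCTttgGATctcctcAAA
Slc25a4, chr8:46663861-46663878, minus strand: CCGatcGAGagggtcAAA
Slc25a5, chrX:36059465-36059482, plus strand: CCCatcGAGagggtcAAG
Slc25a11 carried 3 signatures, at codons 41, 154 and 239 of its 314 codons, and the others are these.
Slc25a11, codon 154, chr11:70536425-70536442, minus strand: CCAgctGACcagcgcCGT
Slc25a11, codon 239, chr11:70536001-70536018, minus strand: CCTgtgGACatcgtcAAA
The coding sequences of Slc25a4 and Slc25a5 are both 894 bases long and were identical at 77.4% of bases, with a longest identical run of 20 bases, so that their reads can be told apart.

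Depth ran from 23389488 to 32231206 estimated counts per library, and 3 counts, taken as the floor of detection, came to 0.0916 to 0.136 CPM, the usual per-library scaling of counts, here with TMM. Dnm1l, the targeted gene, had 72.7, 69.9 and 75.1 CPM in WT libraries and 58.7, 60.7 and 66.3 CPM in Drp1 KO libraries. The Drp1 KO libraries lay below the WT libraries without overlap, but the difference (log2 fold change -0.23, SE 0.0921) did not pass (adjusted p = 0.248, edgeR quasi-likelihood test, and 0.0739 with libraries of the same number as pairs). These counts cover the whole gene, including exons that remain after recombination, and whether this accounts for the small difference was not tested. At the protein level, the study reported by immunoblot that DRP1 was deleted in BMDMs and peritoneal macrophages of the knockout mice, with Drp1 fl/fl mice as WT. The 8 macrophage markers examined were all present, with a summed level of 11991 to 14809 CPM. Libraries 1 of both groups differed from libraries 2 and 3. At mean levels of 1 CPM or more, library 1 was the highest in both groups for 15 of 37 SLC25 genes (40.5%) and for 31.5% of all 12248 genes. Values with pairs, or without both libraries 1 (an alternative chosen after seeing the data), are therefore given where they change a call of an SLC25 gene.

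In these macrophages a few carriers made up most of the mRNA of the genes with SLC25 symbols. Levels between genes are given as TPM, which is per transcript length, summed over the transcripts of a gene. Slc25a3, the phosphate carrier, was the highest of the SLC25 genes at 460 ± 16.7 TPM in WT and 500.2 ± 14.7 TPM in Drp1 KO BMDMs (SD, n = 3). Slc25a5 and Slc25a4, the adenine nucleotide translocators that exchange ADP for ATP, followed at 329 ± 41.3 and 142 ± 9.46 TPM in WT (SD, n = 3). This order depends on which transcripts are summed. On transcripts of biotype protein_coding alone, Slc25a5 was the highest at a mean of 345.9 TPM over the 6 libraries, and Slc25a3 (132.9 TPM) and Slc25a4 (131.9 TPM) were close to each other. Slc25a3, Slc25a5 and Slc25a4 together held 59.8% to 62.0% of the TPM of the SLC25 genes in each library. Ucp2, a family member under another symbol, is not part of this sum. It had 527 ± 72.8 TPM in WT and 487 ± 66.8 TPM in Drp1 KO BMDMs (SD, n = 3). The next level was that of Slc25a11, the oxoglutarate-malate carrier, at 82.5 ± 5.39 TPM in WT and 56.8 ± 3.86 TPM in Drp1 KO BMDMs (SD, n = 3). In the Drp1 KO libraries Slc25a11 ran from 52.4 to 59.4 TPM. There it overlapped with Slc25a51, the NAD carrier (49.1 to 60.1 TPM), Slc25a36 (47.0 to 58.3 TPM) and Slc25a24 (44.1 to 57.2 TPM). In WT the range of Slc25a11 did not overlap with that of any of these genes. At the other end, 8 members had a mean under 1 CPM. These included Slc25a31, the adenine nucleotide translocator of germ cells, and Slc25a47, a carrier known from liver. The SLC25 genes as a whole took 0.153% to 0.165% of the counts of WT libraries and 0.168% to 0.174% of those of Drp1 KO libraries, so the ranges of these unscaled shares did not overlap. They did overlap after TMM scaling (summed CPM of 1492 to 1720 for WT, 1643 to 1833 for Drp1 KO) and as summed TPM (1453 to 1619 and 1577 to 1627).

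**Figure D1:**
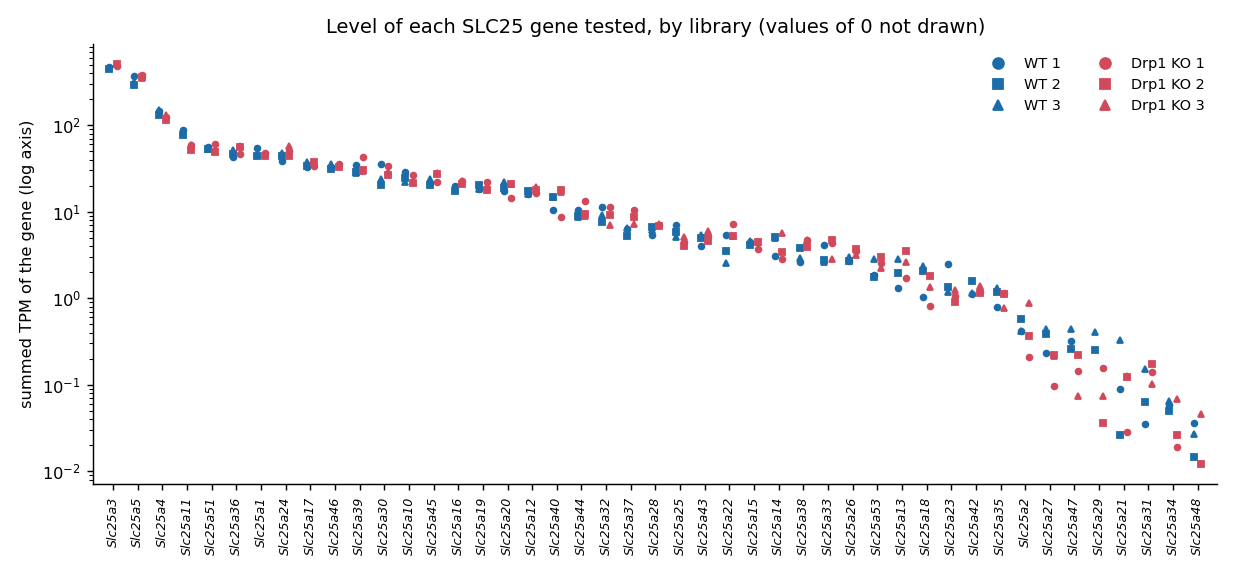
Summed TPM (log axis) of each of the 45 SLC25 genes tested, ordered by mean level, with 1 point per library, WT in blue and Drp1 KO in red. Slc25a3, Slc25a5 and Slc25a4 lie above the rest in all 6 libraries, and the Drp1 KO points of Slc25a11 lie below its WT points.

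The comparison of Drp1 KO with WT asks which carriers differ when mitochondrial division is impaired in macrophages under HSS. Of the 45 SLC25 genes tested, 1 passed an adjusted p under 0.05 (2.22% of the members, against 3.36% of all genes tested): Slc25a11, which fell. By the study's thresholds, a log2 fold change beyond 0.32 in either direction with p under 0.05 before adjustment, 5 members passed (11.1%), against 12.7% of all genes. Of these, Slc25a16, Slc25a22, Slc25a37 and Slc25a38 were higher (8.89% of the members, against 7.19% of all genes) and Slc25a11 was lower (2.22%, against 5.48%). The counts of members past either threshold were therefore near or below those of all genes. The levels of the groups did not overlap for 11 members (24.4%, against 21.9% of all genes), 9 of them higher and 2 lower in Drp1 KO. In direction, 28 members had a positive and 17 a negative log2 fold change, with a median of 0.10, against a median of 0.00 and 50.6% positive over all genes. Among the 37 members of at least 1 CPM, 26 were positive and 11 negative. These are bulk libraries, in which fewer cells of a type and less RNA per cell cannot be told apart. With libraries of the same number as pairs, 7 members passed an adjusted p under 0.05 (15.6%, against 12% of all genes): Slc25a11 fell, and Slc25a5, Slc25a16, Slc25a22, Slc25a30, Slc25a37 and Slc25a38 rose. Past the study's thresholds, Slc25a33, a pyrimidine nucleotide carrier, was added with pairs (6 members, 13.3%, against 15.4% of all genes; log2 fold change 0.43, adjusted p = 0.133). Without both libraries 1 the study's thresholds were passed by 10 members (22.7%, against 17.3% of all genes), with Slc25a5, Slc25a30, Slc25a33, Slc25a40 and Slc25a45 added. There Slc25a33 had a log2 fold change of 0.60 (adjusted p = 0.182) and Slc25a40, a glutathione carrier, one of 0.35 (adjusted p = 0.0643).

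**Figure D2:**
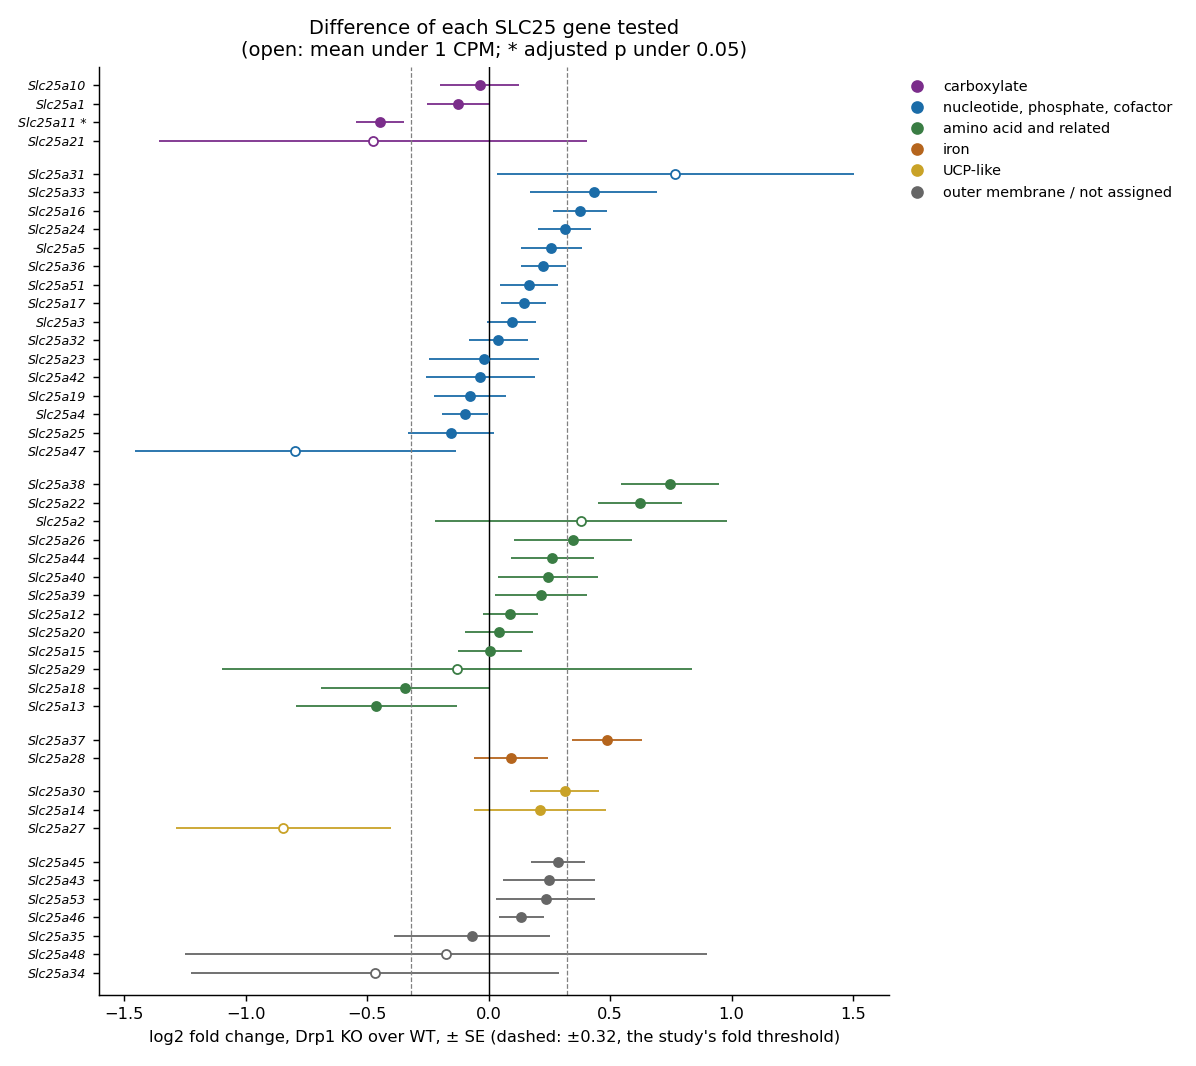
Log2 fold change of Drp1 KO over WT with its standard error for the 45 SLC25 genes tested, grouped by role, with open symbols for means under 1 CPM and dashed lines at the study's fold threshold of 0.32. All 4 carboxylate carriers lie below 0, and Slc25a11 is the only member marked for an adjusted p under 0.05.

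Slc25a11 (chr11:70524697-70538305, minus strand) encodes the carrier that exchanges oxoglutarate for malate in the malate-aspartate shuttle. It had 109, 95.3 and 98.2 CPM in WT libraries and 80.1, 68.2 and 73.8 CPM in Drp1 KO libraries. Every Drp1 KO library lay below every WT library. The log2 fold change was -0.45 (SE 0.10, adjusted p = 0.0406, edgeR quasi-likelihood test), and the adjusted p with pairs was 0.00277. The call was lost when any WT library was left out (adjusted p = 0.0746, 0.123 and 0.130 without WT 1, 2 and 3) and without Drp1 KO 2 (0.173) or 3 (0.107), and with length-scaled counts (0.0718), while the log2 fold change stayed between -0.52 and -0.39. Of the 31-base words of its transcripts, 7.33% are shared with Rnf167, which lies on the opposite strand. Rnf167 had 19.6 ± 0.823 and 18.2 ± 0.305 CPM in WT and Drp1 KO libraries (SD, n = 3), and did not pass (log2 fold change -0.11, adjusted p = 0.694).

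The other carboxylate carriers did not pass. Slc25a1, the citrate carrier, had 41.2 ± 5.61 CPM in WT and 37.8 ± 4.17 in Drp1 KO (SD, n = 3), a log2 fold change of -0.13 (SE 0.127, adjusted p = 0.713). Slc25a10, the dicarboxylate carrier, differed by -0.04 (SE 0.162, adjusted p = 0.961). Slc25a21, the oxodicarboxylate carrier, had 1 to 15 counts per library (log2 fold change -0.48, SE 0.882, adjusted p = 0.871). The median log2 fold change of the 4 carboxylate carriers was -0.29, and -0.13 over the 3 with a mean of at least 1 CPM.

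**Figure D3:**
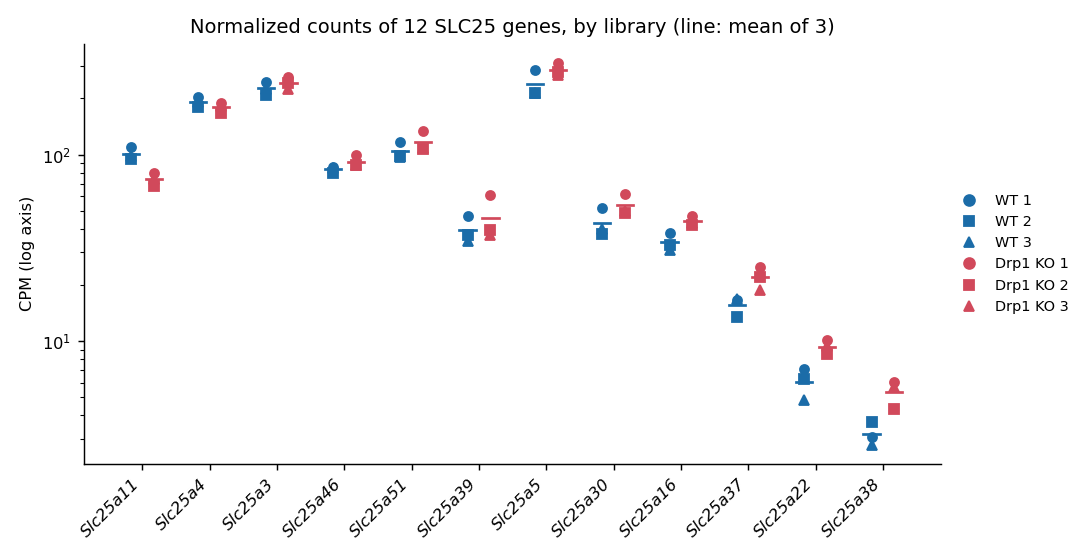
CPM (log axis) of 12 SLC25 genes by library, ordered from the lowest to the highest log2 fold change, with WT in blue, Drp1 KO in red, a symbol for each library number and a line at the mean of 3. Slc25a11, Slc25a16, Slc25a22, Slc25a37, Slc25a38 and Slc25a46 show no overlap between the groups, while Slc25a5 and Slc25a30 overlap through the high WT library 1, and Slc25a39 overlaps.

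The carriers of nucleotides, phosphate and cofactors numbered 18, of which 16 were tested. None passed an adjusted p under 0.05 (edgeR), and 1 passed the study's thresholds (6.25%, against 12.7% of all genes). Of the 16, 10 were higher and 6 lower, and the median log2 fold change was 0.12. Slc25a3 had 246, 209 and 225 CPM in WT libraries and 261, 241 and 225 CPM in Drp1 KO libraries. The groups overlapped, and the difference of 0.10 on the log2 scale (SE 0.101) did not pass (adjusted p = 0.729). It ran from 0.02 without WT 2 to 0.16 without WT 1. Slc25a4, the translocator known for heart and muscle, had 204, 180 and 192 CPM in WT libraries and 189, 166 and 183 CPM in Drp1 KO libraries. The groups overlapped (log2 fold change -0.10, SE 0.0949, adjusted p = 0.694), and the value ran from -0.16 without WT 2 to -0.04 without Drp1 KO 2.

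Slc25a5 (chrX:36059223-36062462, plus strand), the translocator of most proliferating cells, had 284, 214 and 215 CPM in WT libraries and 310, 276 and 267 CPM in Drp1 KO libraries. Within each library number the Drp1 KO library was the higher, but WT 1 lay above Drp1 KO 2 and 3, so the groups overlapped. The log2 fold change was 0.26 (SE 0.126), with an adjusted p of 0.352 in the fit without pairs and 0.0429 with pairs. Without both libraries 1 it was 0.34 (adjusted p = 0.0219). With 1 library left out it ran from 0.17 without WT 2 (adjusted p = 0.742) to 0.40 without WT 1 (adjusted p = 0.0656), by edgeR. Of the 31-base words of Slc25a5, 47.0% occur in other genes, most of them in Gm5560, which itself had at most 4 counts in any library. Reads of such copies and of Slc25a5 can be split by the counting, and the values of Slc25a5 are uncertain to that extent.

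Slc25a16 (chr10:62756404-62782282, plus strand), a carrier linked to coenzyme A in the matrix, had 38.2, 32.6 and 30.9 CPM in WT libraries and 47.0, 42.1 and 42.9 CPM in Drp1 KO libraries. All Drp1 KO libraries lay above all WT libraries (log2 fold change 0.38, SE 0.111, adjusted p = 0.108, 0.0117 with pairs and 0.0207 without both libraries 1). Slc25a51 had 116, 98.4 and 97.2 CPM in WT libraries and 135, 107 and 109 CPM in Drp1 KO libraries. These overlapped through WT 1 (log2 fold change 0.17, SE 0.119, adjusted p = 0.563), and the value ran from 0.04 without Drp1 KO 1 to 0.25 without WT 1. Just outside the thresholds, Slc25a24, a carrier of ATP-Mg and phosphate regulated by calcium, had a log2 fold change of 0.31 and an unadjusted p of 0.0164 in the fit over all genes by edgeR (adjusted p = 0.174), and Slc25a36, a pyrimidine nucleotide carrier, had 0.22 (adjusted p = 0.253). Both showed no overlap between the groups.

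The carriers of amino acids, acylcarnitine, S-adenosylmethionine and glutathione numbered 13, all tested, of which 10 were higher and 3 lower, with a median log2 fold change of 0.21. None passed an adjusted p under 0.05 (edgeR), and 2 passed the study's thresholds (15.4%, against 12.7% of all genes). With pairs 2 passed an adjusted p under 0.05, both higher (15.4%, against 12% of all genes). Slc25a38 (chr9:119939387-119955157, plus strand), which brings glycine into the matrix for heme synthesis, had 3.06, 3.67 and 2.79 CPM in WT libraries and 6.04, 4.31 and 5.67 CPM in Drp1 KO libraries. No Drp1 KO library overlapped with WT. The log2 fold change was 0.75 (SE 0.202, adjusted p = 0.0821, and 0.0269 with pairs). Slc25a22 (chr7:141009649-141017832, minus strand), a glutamate carrier, had 7.11, 6.30 and 4.84 CPM in WT libraries and 10.2, 8.49 and 9.45 CPM in Drp1 KO libraries. The groups did not overlap (log2 fold change 0.62, SE 0.173, adjusted p = 0.0881, 0.0138 with pairs and 0.0331 without both libraries 1). Counted on protein_coding transcripts only, the log2 fold change of Slc25a22 was 1.19 (adjusted p = 0.208).

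Slc25a39, a glutathione carrier and the member of this group with the highest TPM, had 47.0, 37.1 and 34.2 CPM in WT libraries and 60.7, 39.7 and 37.1 CPM in Drp1 KO libraries. Libraries 1 were the highest in both groups and the groups overlapped (log2 fold change 0.21, SE 0.189, adjusted p = 0.661). Within each library number the Drp1 KO library was the higher. The log2 fold change was 0.19 with pairs (adjusted p = 0.185) and 0.10 without both libraries 1 (adjusted p = 0.557), and leaving out Drp1 KO 1 while keeping WT 1 gave -0.05. Of the 31-base words of Slc25a39, 12.9% are shared with Rundc3a on the opposite strand, which had 0.741 ± 0.165 and 0.945 ± 0.133 CPM in WT and Drp1 KO libraries (SD, n = 3). Slc25a12 and Slc25a13, the aspartate-glutamate carriers that complete the malate-aspartate shuttle with Slc25a11, had log2 fold changes of 0.09 (SE 0.112, adjusted p = 0.788) and -0.46 (SE 0.332, adjusted p = 0.566). The summed TPM of Slc25a13 went the other way, with 2.04 ± 0.777 in WT and 2.62 ± 0.923 in Drp1 KO (SD, n = 3). Transcripts of biotype protein_coding held 13.3% of the TPM of Slc25a12 and 33.0% of that of Slc25a13. Slc25a20, which imports acylcarnitine for fatty acid oxidation, differed by 0.04 (SE 0.140, adjusted p = 0.939).

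Slc25a37 and Slc25a28, the mitoferrins, import iron into the matrix. Slc25a37 (chr14:69479297-69522561, minus strand) had 16.6, 13.5 and 16.9 CPM in WT libraries and 25.1, 22.2 and 18.7 CPM in Drp1 KO libraries. The groups did not overlap (log2 fold change 0.49, SE 0.143, adjusted p = 0.108, and 0.0224 with pairs). Of the 31-base words of Slc25a37, 7.71% occur in other genes, most of them in Gm16867. Gm16867 had 8.12 ± 1.43 and 9.25 ± 0.691 CPM in WT and Drp1 KO libraries (SD, n = 3), and the values of Slc25a37 are uncertain to that extent. Slc25a28 had 8.60 ± 1.44 and 9.16 ± 0.247 CPM (SD, n = 3), with a log2 fold change of 0.09 (SE 0.152, adjusted p = 0.856). Slc25a37 and Slc25a38 are known for their high expression in red cell precursors. Of the erythroid markers examined, Alas2 had enough counts to be tested, the globin genes Hba-a1, Hba-a2, Hbb-bs and Hbb-bt and the anion exchanger gene Slc4a1 did not, and the summed level of the list was 0.302 to 1.69 CPM in WT libraries and 0.454 to 0.947 CPM in Drp1 KO libraries.

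The 3 carriers of this nomenclature that resemble the uncoupling proteins did not pass. Slc25a30 had 51.8, 37.7 and 39.8 CPM in WT libraries and 61.8, 48.6 and 50.1 CPM in Drp1 KO libraries. WT 1 lay above Drp1 KO 2 and 3, so the groups overlapped, with a log2 fold change of 0.31 (SE 0.143, adjusted p = 0.312, 0.0208 with pairs and 0.0379 without both libraries 1). It was 0.19 without Drp1 KO 1 and 0.46 without WT 1. Slc25a46, an outer membrane member with a part in mitochondrial dynamics, had 85.8, 79.7 and 84.9 CPM in WT libraries and 99.3, 87.6 and 88.0 CPM in Drp1 KO libraries. The groups did not overlap, but the difference was small (log2 fold change 0.13, SE 0.0931, adjusted p = 0.544, and 0.06 on the log2 scale without Drp1 KO 1). Slc25a45 lay just outside the thresholds, at 0.28 (SE 0.111, adjusted p = 0.232), and passed without both libraries 1 (log2 fold change 0.40, adjusted p = 0.0357).

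Which transcripts carried these counts differed among the members. For Slc25a11, Slc25a4, Slc25a5, Slc25a16, Slc25a46, Slc25a39 and Slc25a51 over 90% of the TPM lay on transcripts of biotype protein_coding in every library. A single transcript held 99.7% of the TPM of Slc25a5, 99.6% of Slc25a4, 99.5% of Slc25a46, 98.6% of Slc25a11, 96.7% of Slc25a16 and 87.7% of Slc25a39, while Slc25a51 was split between its coding transcripts, the leading ones with 60.2% and 29.5%. For Slc25a3 the share was 22.3% to 32.5%. Its short transcript Slc25a3-205, with no defined coding sequence, held 43.3% of its TPM, and Slc25a3-207, a retained intron transcript, held 28.0%. In each library Slc25a3-205 was the highest of the 3, with 207, 212 and 165 TPM in WT and 188, 237 and 239 TPM in Drp1 KO libraries. Slc25a3-207 had 109, 101 and 146 TPM in WT and 155, 140 and 154 TPM in Drp1 KO libraries, which overlapped through WT 3 (log2 fold change 0.49, SE 0.148, adjusted p = 0.303). Slc25a3-201, the main coding transcript, had 153, 122 and 147 TPM in WT and 135, 122 and 114 TPM in Drp1 KO libraries. With protein_coding transcripts only, the log2 fold change of Slc25a3 had the other sign, -0.09.

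Slc25a3 has mutually exclusive coding exons, and they are shown since they set apart the transcripts counted here. Slc25a3-201, at a mean of 132 TPM, holds the exon of 122 bases, and Slc25a3-206, at a mean of 0.732 TPM, holds the exon of 125 bases. Each exon carries its own copy of the first signature, whose codons are in capitals.
Slc25a3-201, chr10:90957784-90957905, minus strand: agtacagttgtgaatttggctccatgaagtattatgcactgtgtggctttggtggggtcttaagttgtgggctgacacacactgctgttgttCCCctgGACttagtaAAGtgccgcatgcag
Slc25a3-206, chr10:90958069-90958193, minus strand: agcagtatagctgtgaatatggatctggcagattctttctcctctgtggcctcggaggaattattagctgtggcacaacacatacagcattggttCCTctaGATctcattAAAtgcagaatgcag
The ubiquitous form is the former, and the latter is known from heart and skeletal muscle. Slc25a3-206 was close to 0 in both groups.

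Slc25a37 carried most of its TPM outside the coding transcripts. Slc25a37-204, a transcript marked for nonsense-mediated decay, held 52.9%, and most of the rest lay on Slc25a37-203, a retained intron transcript. The protein_coding share was 9.02%, 15.2% and 10.0% in WT and 16.6%, 16.7% and 20.7% in Drp1 KO libraries. The Drp1 KO libraries lay above the WT libraries, though kallisto estimates such shares from reads that several transcripts share, and that uncertainty was not modelled. The protein_coding share of Slc25a28, the other mitoferrin, went the opposite way, from 50.2%, 32.7% and 42.9% in WT to at most 29.7% in Drp1 KO libraries, also without overlap. Slc25a37-204 had 3.59, 2.78 and 3.03 TPM in WT and 5.76, 4.73 and 3.59 TPM in Drp1 KO libraries, the last of these at the level of WT 1 (log2 fold change 0.68, SE 0.264, adjusted p = 0.438). Slc25a37-203 ran from 1.64 to 2.80 TPM in WT and overlapped with the Drp1 KO libraries, the lowest of which had 2.14 TPM. With protein_coding transcripts only, the log2 fold change of Slc25a37 was larger, 0.80 (adjusted p = 0.307), but its unadjusted p was not under 0.05, so that it did not pass the study's thresholds, while Slc25a30 passed them. Slc25a22 was spread over many transcripts, of which Slc25a22-203 (40.6%), Slc25a22-204 (17.5%), Slc25a22-222 (13.5%) and Slc25a22-209 (11.2%) held most of the TPM, and its coding share ran from 20.6% to 98.1% in WT and from 37.8% to 76.8% in Drp1 KO. The main coding transcript Slc25a22-203 had 0.0329, 1.45 and 1.65 TPM in WT and 2.25, 2.92 and 3.59 TPM in Drp1 KO libraries, lowest in WT 1. For Slc25a30, Slc25a30-201 held 68.0%, with 19.7, 14.7 and 17.5 TPM in WT and 23.1, 19.4 and 20.4 TPM in Drp1 KO libraries, beside a shorter coding transcript and a retained intron transcript with 10.5%. The coding transcript of Slc25a38, Slc25a38-201, which held 68.7% beside 12.5% on Slc25a38-206, had 2.02, 2.15 and 1.84 TPM in WT and 3.66, 2.38 and 3.58 TPM in Drp1 KO libraries. At the level of transcripts, 164 of the 251 SLC25 transcripts were tested and 0 passed an adjusted p under 0.05 by edgeR, with or without pairs, against 0.332% of all 62020 transcripts tested. An unadjusted p under 0.05 was found for 13 of them (7.93%, 11 higher and 2 lower), against 10.3% of all transcripts. The coding transcript Slc25a11-201 had a log2 fold change of -0.45 (SE 0.116, adjusted p = 0.213), as large as that of its gene.

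**Figure D4:**
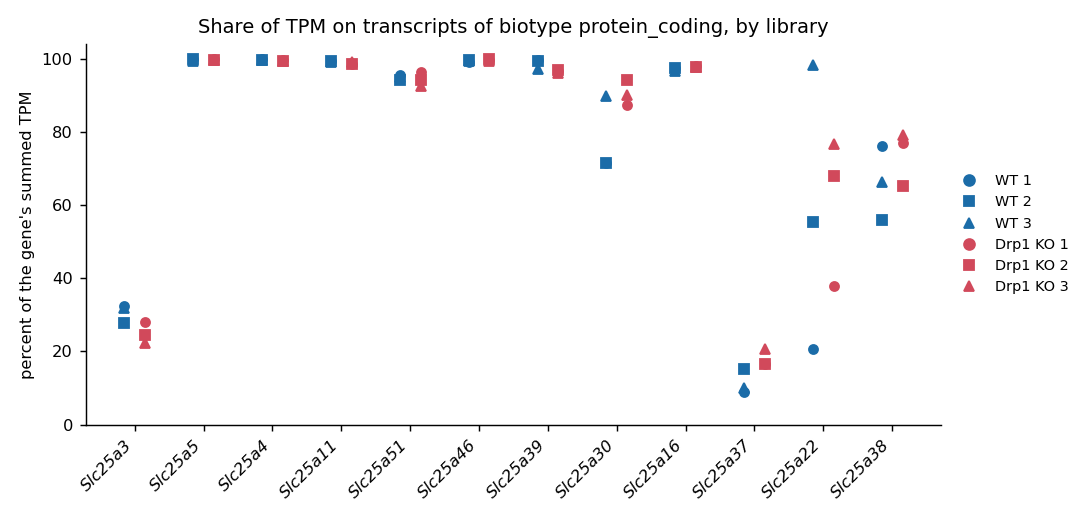
Percent of each gene's summed TPM that lay on transcripts of biotype protein_coding, for 12 SLC25 genes ordered by mean TPM, with 1 point per library. Slc25a3 and Slc25a37 stay under 33% in all 6 libraries, Slc25a22 scatters widely, and Slc25a11, Slc25a4, Slc25a5 and Slc25a16 lie near 100%.

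Ratios of related carriers within a library do not depend on the scaling between libraries. Of 7 pairs compared, the groups did not overlap for 2. Slc25a5 over Slc25a4 was 2.58, 2.26 and 2.14 in WT and 3.04, 3.12 and 2.73 in Drp1 KO libraries. The ratio was higher in each Drp1 KO library than in any WT library (exact permutation p = 0.1, two-sided, 0.35 after adjustment over the 7 pairs), and 0.1 is the smallest p that 3 against 3 libraries can give. Slc25a24 over Slc25a25, both calcium-regulated carriers of ATP-Mg, was 5.49, 7.65 and 9.43 in WT and 11.2, 11.0 and 11.2 in Drp1 KO libraries (exact permutation p = 0.1). For Slc25a28 over Slc25a37, Slc25a12 over Slc25a13, Slc25a22 over Slc25a18, Slc25a39 over Slc25a40 and Slc25a36 over Slc25a33 the groups overlapped. Within library numbers, a comparison added after seeing the data, Slc25a5 over Slc25a4, Slc25a24 over Slc25a25 and Slc25a22 over Slc25a18 were each higher in Drp1 KO for all 3 numbers (exact paired permutation p = 0.25, two-sided, the smallest that 3 pairs can give). Slc25a22 over Slc25a18 was 5.31, 1.69 and 1.08 in WT and 8.92, 2.89 and 3.94 in Drp1 KO libraries. Slc25a18 had few counts, 27 to 89 per library, and 25.4% of its 31-base words are shared with Atp6v1e1 on the opposite strand, so this ratio is uncertain. The other 4 ratios went both ways within numbers.

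**Figure D5:**
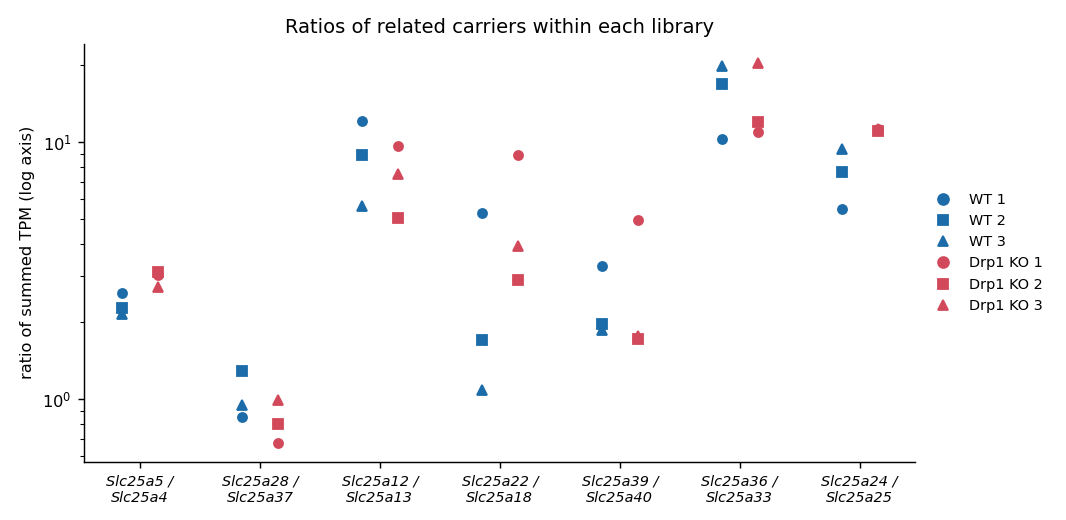
Ratio of summed TPM (log axis) within each library for 7 pairs of related carriers, WT in blue and Drp1 KO in red. The groups separate for Slc25a5 over Slc25a4 and for Slc25a24 over Slc25a25, with exact permutation p of 0.1 each, and overlap in the other pairs.

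Family members outside the SLC25 symbols, Ucp1, Ucp2, Ucp3, Mtch1 and Mtch2, included 4 that were tested, and none passed an adjusted p under 0.05 (edgeR). By the study's thresholds 1 passed, Ucp2 (25%, against 12.7% of all genes). With pairs 2 passed an adjusted p under 0.05, Ucp2 and Mtch2 (50%, against 12% of all genes). Ucp2, an uncoupling protein of immune cells, had 491, 418 and 473 CPM in WT libraries and 442, 307 and 355 CPM in Drp1 KO libraries, which overlapped (log2 fold change -0.32, SE 0.136, adjusted p = 0.267, and 0.0198 with pairs). Mtch2, an outer membrane insertase, had 49.2 ± 3.42 and 61.4 ± 0.894 CPM (SD, n = 3), a log2 fold change of 0.32 (SE 0.0929, adjusted p = 0.102, and 0.0213 with pairs).

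Of 24 other genes of mitochondrial membrane transport, 2 passed an adjusted p under 0.05, both lower (8.33%, against 3.36% of all genes). They were Mpc1 and Mpc2, which together form the mitochondrial pyruvate carrier, a family of its own. Mpc1 had 74.2, 99.8 and 82.2 CPM in WT libraries and 53.4, 61.2 and 41.3 CPM in Drp1 KO libraries. The groups did not overlap (log2 fold change -0.72, SE 0.156, adjusted p = 0.0355, and 0.00105 with pairs). Mpc2 had 29.7, 33.1 and 37.9 CPM in WT libraries and 23.3, 21.6 and 20.5 CPM in Drp1 KO libraries, again without overlap (log2 fold change -0.63, SE 0.119, adjusted p = 0.0208, and 0.00401 with pairs). With pairs a further gene passed (12.5% in all, against 12% of all genes), Smdt1, a subunit of the mitochondrial calcium uniporter, with 41.4, 38.8 and 40.3 CPM in WT libraries and 33.4, 31.8 and 27.4 CPM in Drp1 KO libraries (log2 fold change -0.38, SE 0.107, adjusted p = 0.0928, and 0.0167 with pairs). Of 13 genes of the route that imports carrier precursors, none passed an adjusted p under 0.05 (edgeR). Timm13, a chaperone of the intermembrane space, passed the study's thresholds (log2 fold change -0.54), 7.69% of the list against 12.7% of all genes. With pairs Timm13 passed an adjusted p under 0.05 (log2 fold change -0.55, adjusted p = 0.0185), 7.69% of the list against 12% of all genes.

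Markers of other cells that a bone marrow culture could hold moved with the groups in part. Of 10 neutrophil markers 7 were tested and all 7 were higher in Drp1 KO, 0 with an adjusted p under 0.05 and 4 with pairs (57.1%, against 12% of all genes). Their summed level was 7.46, 19.9 and 22.2 CPM in WT libraries and 21.2, 49.3 and 47.5 CPM in Drp1 KO libraries. Of the 8 macrophage markers 3 passed an adjusted p under 0.05 (37.5%, against 3.36% of all genes). Fcgr1, a high-affinity Fc receptor, rose from 65.8 ± 7.22 CPM in WT to 166.5 ± 13.7 CPM in Drp1 KO (SD, n = 3; log2 fold change 1.34, adjusted p = 0.000322, edgeR). Csf1r, the receptor for the growth factor of these cultures, fell (log2 fold change -0.52, adjusted p = 0.0340), as did Mertk, a receptor for the uptake of dead cells (log2 fold change -0.52, adjusted p = 0.0236). The part of the neutrophil and macrophage markers in the differences of the carriers was not tested. The summed level of 8 dendritic cell markers was 44.3, 62.7 and 64.0 CPM in WT libraries and at most 51.3 CPM in Drp1 KO libraries. That of 7 fibroblast markers was 13.6 to 21.4 and 13.3 to 16.3 CPM, and no gene of either list passed an adjusted p under 0.05 (edgeR). Of 6 dendritic cell markers tested, Zbtb46 (log2 fold change -0.77) and Itgax (-0.45) passed the study's thresholds (33.3%, against 12.7% of all genes). Of 6 fibroblast markers tested, 0 did. Of the 8 lymphocyte markers, Cd4 made up nearly all of the summed level, with 313, 319 and 303 CPM in WT libraries and 137, 245 and 119 CPM in Drp1 KO libraries (log2 fold change -0.90, adjusted p = 0.0595, and 0.00228 with pairs), while Nkg7, a marker of natural killer cells, had too few counts to be tested.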

How the data were processed

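RNA of WT and Drp1 KO BMDMs after 8 h of HSS was poly(A)-selected and sequenced paired-end in 3 libraries per group. The authors quantified the reads with kallisto (version 0.46.1 in the submitters' processing notes) against Ensembl cDNA of GRCm39 and deposited the estimated counts and the TPM of each transcript. The estimated counts are not scaled between libraries, and the TPM values are scaled to a common total per library and by transcript length. Whether strand or a bias correction was used in counting is not stated in the sources used here. The deposited effective length was above the transcript length for 11503 to 16143 transcripts per library, which bears on the bias correction and on the TPM of those transcripts. The labels' value of 2.1% O2 is used; the study's methods give a slightly different one.

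Transcripts were matched by identifier, without version, to the GENCODE annotation of GRCm39; 116159 of 116873 matched (99.4%), and 0.542% to 0.575% of counts on the others were left out. Estimated counts were summed per gene and rounded, genes with at least 10 counts in total were kept (18506), and Drp1 KO was tested against WT with edgeR 4.0.16 in R 4.3.3 (TMM, quasi-likelihood test, no covariate), with Benjamini-Hochberg adjustment over all genes tested. CPM values use the TMM-scaled library sizes, and standard errors were derived from the log2 fold change and the F statistic, as |log2 fold change|/sqrt(F). TPM was used for levels between genes and for ratios, which were compared with exact two-sided permutation tests. Alternatives were DESeq2 1.42.0, limma-voom (limma 3.58.1), other scalings, filters and countings, a replicate block, and leaving out libraries. The test was checked on simulated data first.

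The groups share the numbers 1 to 3. Deviations from the group mean correlated at 0.510, 0.204 and 0.298 between libraries of the same number over 12248 genes, each over 0.1, and the 6 pairs of different numbers at -0.443 to 0.326 (the highest between WT 2 and Drp1 KO 3). On the rule that each same-number value be over 0.1, libraries of the same number were treated as pairs; the study does not state a pairing. Libraries of a group differed by more than sampling noise (chi-square per degree of freedom 10.4 to 43.9).

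Values in every library are given for members with an adjusted p under 0.05, members past the study's thresholds (log2 fold change beyond 0.32, unadjusted p under 0.05), the 5 members with the highest TPM, the member with the highest TPM of each role list, and transcripts of these with at least 10% of their gene's TPM (those that follow their gene by their share only). The members, lists and tests were chosen with earlier results of these data known. Signature codons were searched in the coding sequence of the transcript with the highest mean TPM of each gene.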

Additional observations from a re-analysis of the deposited data

How the results depend on the processing

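The count of 1 SLC25 gene with an adjusted p under 0.05 was 3 with a filter of at least 1 count (Slc25a11, Slc25a22 and Slc25a38), 4 with DESeq2 (with Slc25a37 added), 0 with length-scaled counts, 7 with the replicate block, 6 without both libraries numbered 1 (chosen after seeing the data) and 0 to 2 with a library left out. Slc25a11 passed in 10 of 16 other settings; without WT 1 the 2 members called were Slc25a16 and Slc25a22. The count of 5 past the study's thresholds of fold and unadjusted p was 4 to 9 with a library left out, the highest without WT 1, 6 with the replicate block and 10 without both libraries 1. The median log2 fold change of 0.10 was 0.127 with filterByExpr, 0.132 with limma-voom, 0.143 with length-scaled counts, 0.136 with protein_coding transcripts only, and 0.0575 to 0.145 with a library left out, the lowest without Drp1 KO 1. The direction turned for Slc25a3 with protein_coding transcripts only (-0.0867) and for Slc25a39 without Drp1 KO 1 (-0.0484; -0.0484 to 0.355 over the libraries left out). The cause was not tested. In the replicate block, the calls that changed are given with each gene, and no other call by adjusted p changed among the SLC25 genes. Of the values of single genes recomputed, 183 kept their direction and side of the threshold, 17 passed it where the fit reported did not, 6 no longer passed it (all Slc25a11) and 2 turned. Of the recomputed counts, 27 stayed within 1.5 times, 8 were higher and 5 lower, and the median moved by more than its spread in 10 of 16 settings. Over all genes the share called moved too: 3.36% in the fit reported, 4.43% with the filter of 1 count (members 6.38%), 6.24% with DESeq2 (8.89%), 2.49% with length-scaled counts (0), 12% with the block (15.6%), 10.5% without both libraries 1 (13.6%) and 1 to 4.96% with a library left out. The 8 members with a mean under 1 CPM have few counts, and their log2 fold changes have wide standard errors.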
